A study of Rattus norvegicus with 68 samples.

Results

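The genes described here encode subunits of the mitochondrial respiratory chain and the ATP synthase, followed in the nasal epithelium of rats that breathed formaldehyde. The set was chosen with earlier results of these data known. Membership in it went by name: every gene whose single platform symbol begins with Ndufa, Ndufb, Ndufc, Ndufs, Ndufv, Sdh, Uqcr, Cox4 to Cox8 or Atp5, without the Ndufaf and Sdhaf assembly factors. That gave 80 of 14217 genes on the array, each read by its probe set of highest mean signal. By complex they were 34 genes of complex I, 4 of complex II, 7 of complex III, 19 of complex IV and 16 of complex V. Ndufa4 and its relative Ndufa4l2 were counted with complex IV, where the Ndufa4 protein is known to sit. The name rule also took in 2 genes that encode no subunit, the ATP synthase inhibitor Atp5if1 and the pseudogene Cox6c-ps1. Several nuclear subunit genes were left out because their probe sets name more than 1 gene, among them Uqcrb, Cox7a2, Atp5mc1, Ndufs5 and Ndufa10.

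RNA came from male F344/CrlBR rats, 8 weeks old, whose whole bodies were exposed to the gas during daily sessions of 6 h, 5 in each week. The cells were freed by protease from level II of the nose after the maxilloturbinate and olfactory lining were discarded, and the labels call them mainly transitional with some respiratory epithelium. There were 68 Affymetrix arrays, 1 per animal, in 17 groups of 4. The air held 0.7, 2, 6, 10 or 15 ppm of formaldehyde for 5 d, 4 w or 13 w, and animals at 0 ppm were studied at 5 d and 13 w. No 0 ppm array of 4 w was analysed here, so that 0.7 ppm, itself an exposure, was the reference at that time. All differences are given as log2 of exposed over reference, with the standard error (SE), and a gene was called at a Benjamini-Hochberg adjusted p under 0.05 in limma's moderated test over all 14217 genes. Each time has its own reference, so that comparisons of 1 time share their reference animals.

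Complexes I and II pass electrons from NADH and succinate to coenzyme Q, complex III passes them on to cytochrome c, and complex IV hands them to oxygen. Complexes I, III and IV pump protons as they do so, and complex V, the ATP synthase, uses the returning protons to make ATP. The subunits measured here are encoded in the nucleus and imported into mitochondria, while a smaller set encoded by mitochondrial DNA has no gene under this rule. Airway epithelium uses this ATP for ciliary beating, ion transport and mucus secretion. Several complex IV subunits come in isoform pairs, with a general form in most tissues and a second form known mainly from muscle, lung or testis.

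Before the values, 4 promoters are shown, because the results below turn on these genes: both isoforms of complex IV subunit 8, a succinate dehydrogenase subunit and an ATP synthase subunit that was higher at 15 ppm at every time. RefSeq windows of the GRCr8 build, covering 250 bases before the annotated start, could be matched for 72 of the 80 genes. Capitals mark motifs found by exact search on both strands. Cox8b, the muscle-type isoform of complex IV subunit 8, lies on chr1:205408274-205408523, minus strand, and its window holds 1 TATAAA and 2 CAGCTG. Cox8a, the general isoform, lies on chr1:213833624-213833873, minus strand, and its window holds 2 copies of CCGGAAG read as CTTCCGG and 1 CCAAT read as ATTGG. Sdha, on chr1:30764303-30764552, plus strand, holds 2 matches to the NRF1 motif (GCGC, any base, then TGCGC), and Atp5mpl, on chr6:136845641-136845890, minus strand, holds 1, all read on the opposite strand (GCGCA, any base, then GCGC).
Cox8b: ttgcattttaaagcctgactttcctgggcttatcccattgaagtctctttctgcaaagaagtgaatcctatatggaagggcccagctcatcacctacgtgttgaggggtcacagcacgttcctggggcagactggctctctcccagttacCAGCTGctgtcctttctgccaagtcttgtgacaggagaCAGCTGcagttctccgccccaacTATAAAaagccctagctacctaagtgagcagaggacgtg
Cox8a: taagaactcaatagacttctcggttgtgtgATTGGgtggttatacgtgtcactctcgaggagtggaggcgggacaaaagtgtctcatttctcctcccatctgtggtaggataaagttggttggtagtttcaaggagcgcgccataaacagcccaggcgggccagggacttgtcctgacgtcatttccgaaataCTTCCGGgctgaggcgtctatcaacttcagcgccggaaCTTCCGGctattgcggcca
Sdha: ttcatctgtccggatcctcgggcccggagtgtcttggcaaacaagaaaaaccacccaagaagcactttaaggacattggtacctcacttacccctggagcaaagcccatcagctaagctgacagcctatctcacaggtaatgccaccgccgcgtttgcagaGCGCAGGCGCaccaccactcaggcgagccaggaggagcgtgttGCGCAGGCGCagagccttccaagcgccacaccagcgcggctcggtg
Atp5mpl: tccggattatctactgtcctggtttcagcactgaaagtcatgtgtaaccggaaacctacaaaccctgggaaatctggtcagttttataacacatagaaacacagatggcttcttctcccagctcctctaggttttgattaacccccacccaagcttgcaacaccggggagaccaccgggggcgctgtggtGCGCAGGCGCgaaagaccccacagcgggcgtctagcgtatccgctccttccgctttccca

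The Cox8b window thus had a TATA box letter string, and that of Cox8a had none and carried ETS-type letters. TATAAA also lies in the window of Atp5mpl, which was higher, and of members never called, such as Atp5mg and Ndufa2. A link between letters and changes was not tested. Over all matched members, the NRF1 motif, the core of the site of nuclear respiratory factor 1, was found in 10 windows (13.9%), against 3.75% of all 33469 windows. CCGGAAG, the letters bound by ETS factors such as GABPA, was found in 19 (26.4%), against 7.27% of all windows. TATAAA was found in 8 (11.1%), against 12.9%, CAGCTG in 8 (11.1%), against 12%, and CCAAT in 24 (33.3%), against 34%. The MEF2 motif (CTA, any 4 bases, then TAG) was found in 2 (2.78%), against 3.41%. The windows of Sdha and Atp5mpl also hold 1 CCAAT and 1 TATAAA that are not in capitals. The 33469 windows are all RefSeq windows, not only those of genes on the array, and were not matched to the members for signal. A match is a description of the letters, and no binding was measured.

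As a group the genes were bright and varied little. Their median mean signal was 12.1 on the log2 scale, against 8.25 over all genes. The means of the 17 groups spanned a median of 0.257 per gene, against 0.489 over all genes, and 76 of the 80 (95%) spanned less than 0.5, against 51.5% of all genes. Those that spanned more were Cox8b (1.33), Ndufa4l2 (0.96), Cox6b2 (0.875) and Cox7a1 (0.60), all minor isoforms of complex IV. The median SE of a difference was 0.063 for the members and 0.104 over all genes. Cox4i2, Cox6a2 and Cox7b2, also minor isoforms, had no group mean of 6 or more and lie in the low range of the arrays.

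The tissue around these genes changed with dose, which bears on every value below because these are bulk samples: fewer cells of a type and less RNA per cell cannot be told apart. At 15 ppm, 8, 10 and 12 of 12 basal and squamous markers were higher and 2, 0 and 0 lower at 5 d, 4 w and 13 w, and 5, 7 and 12 of 13 ciliated markers were lower. The ciliated marker that was higher at every time was Ccno, at 0.74, 0.68 and 1.05. The summed linear signal of the ciliated markers ran from 12278 to 19398 at 0 ppm and from 8559 to 15323 at 15 ppm after 5 d, and from 11227 to 16131 and from 6528 to 10120 after 13 w. That of the basal and squamous markers lay between 47319 and 56836 at 0 ppm and between 128538 and 153277 at 15 ppm after 13 w. All 8 neutrophil markers were higher at 15 ppm after 5 d, with sums of 1271 to 5298 at 0 ppm and 17521 to 27825 at 15 ppm, and 1 of 8 after 13 w. Macrophage markers were 6, 4 and 0 higher and 0, 0 and 6 lower of 12, lymphocyte markers 6, 4 and 0 higher and 0, 1 and 5 lower of 11, secretory markers 3, 4 and 8 lower of 13, fibroblast markers 0, 1 and 4 lower of 8, and olfactory markers 1, 2 and 1 lower of 10. Over all genes 18.3%, 21.3% and 23.5% were called higher and 19.5%, 16.1% and 20.6% lower in these comparisons. The olfactory counts and the secretory count of 5 d lie near or below these lower shares. The fibroblast counts of 5 d and 4 w lie below them. Although the olfactory lining was discarded, olfactory signal was present, with the marker Omp at a mean of 12.78 at 0 ppm after 5 d. The summed olfactory signal ran from 43676 to 64707 at 0 ppm and from 20471 to 60029 at 15 ppm after 5 d. After 13 w the sums ran from 30994 to 58147 and from 14341 to 50446. RNA quality moved too: the 3' minus 5' signal of beta-actin, a measure of RNA integrity, was 1.71 ± 0.20 (SD, n = 4) at 0 ppm, 2.61 ± 0.17 at 6 ppm and 2.47 ± 0.08 at 15 ppm after 5 d, and between 1.58 and 2.05 in the other groups. The mean RNA integrity number was 7.68 at 0 ppm, 8.47 at 6 ppm and 8.32 at 15 ppm after 5 d, 8.2 at 0.7 ppm and 8.72 at 15 ppm after 4 w, and 7.57 at 0 ppm and 8.9 at 15 ppm after 13 w, over the 3 or 4 animals of a group that have one. A larger 3' minus 5' difference is read as less intact RNA, and a larger integrity number as more intact RNA. After 5 d the measures therefore pointed in opposite directions at 6 and 15 ppm. The part of the cell markers in the changes below was not tested, and values from fits with either RNA measure as a covariate stand beside the results they are given for.

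**Figure D1:**
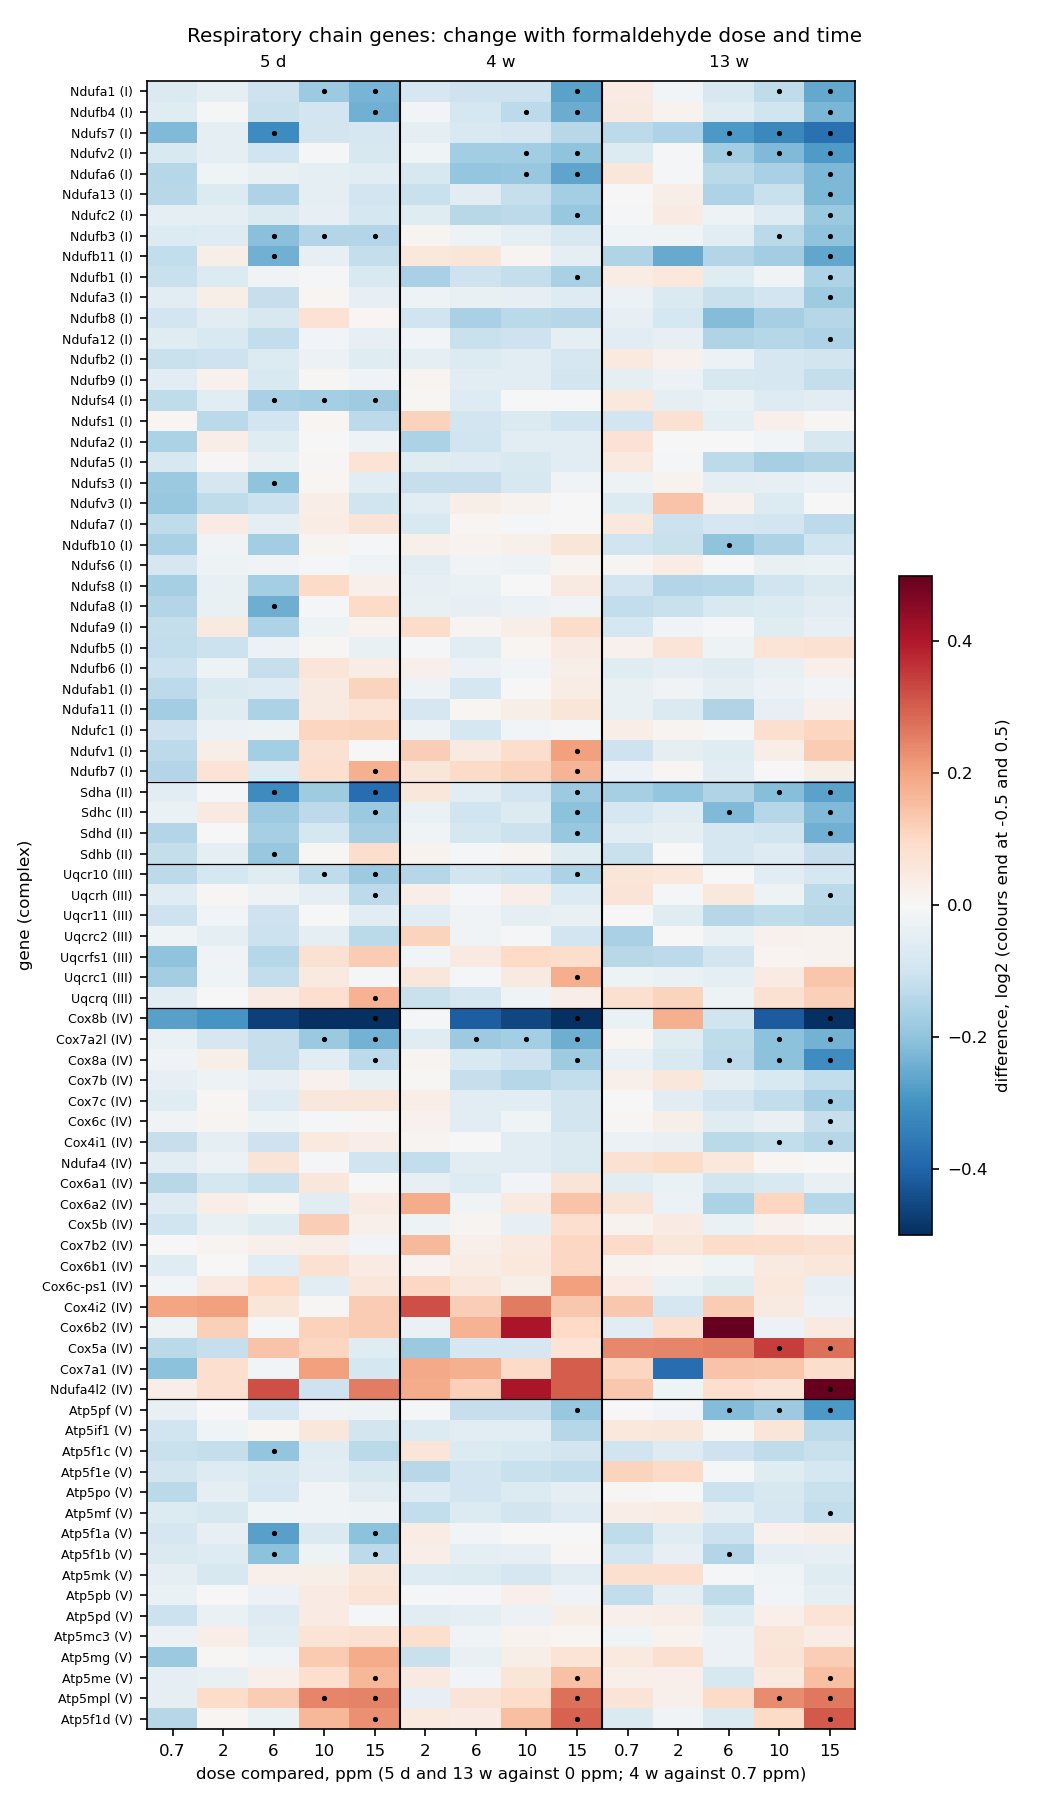
Log2 difference of each of the 80 genes (rows, with the complex in brackets) at each dose against its reference (columns, ppm, at 5 d, 4 w and 13 w); dots mark genes called by limma at an adjusted p under 0.05, and colours end at -0.5 and 0.5. Most cells are pale, the dots gather at 15 ppm, and Cox8b is the darkest row.

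The question of each dose comparison is at which concentration the genes differ from the reference of the same time. At 0.7 and 2 ppm limma called none of the 80 genes at any time, and the share of all genes called in these 5 comparisons was 0%, 0.0281%, 0.0211%, 0% and 0.00703%. At an unadjusted p under 0.05, 19 members differed at 0.7 ppm (7.81% of all genes) and 0 at 2 ppm (5.76%) after 5 d, 8 at 2 ppm after 4 w (8.16%), and 5 at 0.7 ppm (4.4%) and 5 at 2 ppm (10.2%) after 13 w. The count of 19 went with a small common shift: 77 of the 80 genes lay below 0 ppm at 0.7 ppm after 5 d, with a median of -0.10 against -0.02 over all genes. At 13 w the median at 0.7 ppm was -0.00.

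At 6 ppm the first calls appeared, and every member called was lower. After 5 d 11 were lower (13.8% of the members, background 8.83% called, 3.54% higher and 5.3% lower), spread over complexes I, II and V. By smallest adjusted p the first were Atp5f1a, the alpha subunit of the catalytic head of the ATP synthase, Ndufb3, an accessory subunit of complex I, and Sdha, the flavoprotein of succinate dehydrogenase. Sdha was 11.43, 11.46, 11.42 and 11.496 in the 0 ppm animals and 11.04, 11.21, 11.18 and 11.13 in the 6 ppm animals, so that the groups did not overlap. It fell by 0.315 (SE 0.074, limma adjusted p = 0.00423), Atp5f1a by 0.27 (adjusted p = 0.00238) and Ndufb3 by 0.21 (adjusted p = 0.00293). With the beta-actin measure as a covariate none of the 11 calls held, and the differences were -0.07 for Sdha, -0.05 for Atp5f1a and -0.18 for Ndufb3. In that fit the calls over all genes fell too, to 4.19%, with 425 higher and 170 lower against 503 and 753 without the covariate. The count of 11 fell to 5 without the 0 ppm animal 207 or the 6 ppm animal 295, and to 6 without the 6 ppm animal 300.

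After 4 w at 6 ppm 1 member was lower (1.25%, background 3.28% called, 2.05% higher and 1.24% lower), Cox7a2l, which helps join complexes III and IV into supercomplexes. It was -0.18 (SE 0.054, adjusted p = 0.0434), and this call was lost without any 1 of the animals 242, 243 and 245 at 0.7 ppm or 307, 309 and 310 at 6 ppm, with values between -0.159 and -0.181. After 13 w 7 were lower (8.75%, background 12.2% called, 7.54% higher and 4.68% lower): Ndufs7, Ndufv2 and Ndufb10 of complex I, Sdhc, Cox8a, and Atp5f1b and Atp5pf of the ATP synthase. Ndufs7, an iron-sulfur subunit close to the coenzyme Q site, was at -0.29 (SE 0.077, adjusted p = 0.00785), and Atp5pf, a stalk subunit, at -0.22 (adjusted p = 0.0172). Without the 6 ppm animal 320 the count was 0, and it was 2 and 4 without the 0 ppm animals 226 and 225. Centring each array on its median gave 15 lower, and turned the split over all genes from 61.7% to 38.1% higher among those called.

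At 10 ppm the result at 5 d depended on the reference dose. Against 0 ppm after 5 d 1 member was higher and 5 were lower (7.5%, background 15.5% called, 9.75% higher and 5.79% lower). Atp5mpl, a small membrane subunit of the ATP synthase, rose by 0.24 (SE 0.061, adjusted p = 0.0032), and Cox7a2l fell by 0.185 (adjusted p = 0.0124). Without the 10 ppm animal 329 the count was 3, and the fall of Ndufa1 by 0.18 (adjusted p = 0.00717) was no longer called there, at -0.16 (adjusted p = 0.0501). Against 0.7 ppm 18 members were higher and 1 lower at 10 ppm after 5 d (23.8%, where 20.6% of all genes were called, 14.5% higher and 6.13% lower).

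After 4 w at 10 ppm 4 members were lower (5%, background 14.8% called, 9.03% higher and 5.75% lower): Cox7a2l by 0.17, and the complex I subunits Ndufv2 by 0.17, Ndufa6 by 0.19 and Ndufb4 by 0.13, with adjusted p-values from 0.021 to 0.048. The count was 0 without the 0.7 ppm animal 242 or the 10 ppm animal 338, 1 without animal 243 or 336, and 2 without animal 245 or 333. After 13 w 2 were higher and 9 were lower (13.8%, background 26.4% called, 13.8% higher and 12.5% lower). Cox8a fell by 0.205 (SE 0.041, adjusted p = 0.000104), Ndufs7 by 0.32 (adjusted p = 0.000958) and Ndufv2 by 0.22 (adjusted p = 0.00123), while Atp5mpl rose by 0.235 (adjusted p = 0.00232). Against 0.7 ppm the Ndufs7 difference was -0.19 (adjusted p = 0.0567) at 10 ppm and -0.16 (adjusted p = 0.191) at 6 ppm. Cox5a, a matrix-side subunit of complex IV, was the other higher gene at 0.35 (adjusted p = 0.021). Against 0.7 ppm it was at 0.11 (adjusted p = 0.573), and the call was lost without animal 226 (0.27), 346 (0.32) or 349 (0.32). A separate probe set that names Cox5a together with another gene was at 0.08 (SE 0.048) at 15 ppm after 13 w. The 13 w count was 5 without the 10 ppm animal 349, 6 without the 0 ppm animal 229, and 7 without animal 226 or 341.

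At 15 ppm 5 members were higher and 13 lower after 5 d (22.5%, background 37.7% called, 18.3% higher and 19.5% lower), 6 and 14 after 4 w (25%, background 37.4%, 21.3% higher and 16.1% lower) and 5 and 24 after 13 w (36.2%, background 44.2%, 23.5% higher and 20.6% lower). The members' share called was thus below that of all genes at each time. The changes were also small: 1, 1 and 2 members were called at 1.5-fold or more, against 12.2%, 12.3% and 17.8% of all genes. The median difference over the 80 members was -0.02, -0.04 and -0.08, against -0.01, 0.01 and -0.02 over all genes. Leaving out each of the 8 animals in turn, 10 of the 18 members called at 5 d, 11 of the 20 at 4 w and 20 of the 29 at 13 w were called every time. Without the 15 ppm animal 368 the 4 w count was 13.

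Called lower at all 3 times were 7 members (background 10.4% of all genes): Cox8b, Cox8a, Cox7a2l, Ndufa1, Ndufb4, Sdha and Sdhc. Called higher at all 3 times were 3 (background 11.7%): Atp5mpl, Atp5f1d and Atp5me, all of the ATP synthase. Across the 14 dose comparisons 9 members were called only higher (11.2%, background 30.5%), 33 only lower (41.2%, background 29.5%), 0 in both directions (background 1.63%) and 38 never (47.5%, background 38.4%). The 3 comparisons at 15 ppm use different animals throughout.

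**Figure D2:**
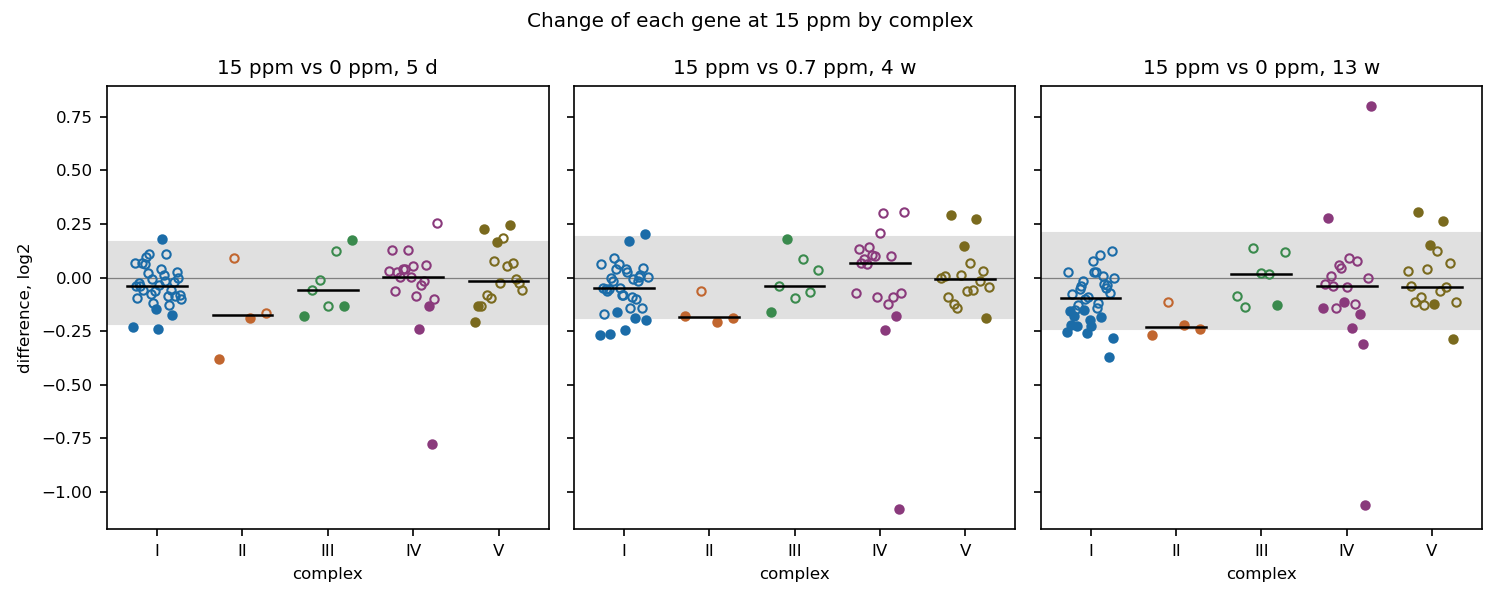
Log2 difference of each gene (points) at 15 ppm against the reference of the same time, by complex, in a panel per time; filled points were called by limma, black lines are medians over the genes of a complex, and the grey band holds the middle 50% of all 14217 genes. Complex II lies lowest at each time, and a single complex IV gene, Cox8b, lies far below the rest.

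In complex I, the entry point for NADH, 1 gene was higher and 4 lower at 15 ppm after 5 d, 2 and 6 after 4 w, and 0 and 12 after 13 w, of 34 genes, with medians of -0.04, -0.05 and -0.10. The steadiest falls were in Ndufa1 and Ndufb4, small accessory subunits of the membrane arm. Ndufb4 was 13.45, 13.45, 13.44 and 13.33 in the 0 ppm animals and 13.08, 13.18, 13.24 and 13.22 in the 15 ppm animals after 5 d. The groups did not overlap, although the 0 ppm animal 210 stood below the other 3. Ndufb4 fell by 0.24 (SE 0.047, limma adjusted p = 3.63e-05) at 5 d, by 0.25 (adjusted p = 2.38e-05) at 4 w and by 0.23 (adjusted p = 5.61e-05) at 13 w. Ndufa1 was between 13.30 and 13.35 at 0 ppm and 13.02, 13.15, 13.11 and 13.06 at 15 ppm after 5 d, again without overlap. It fell by 0.23 (-14.8%, adjusted p = 0.000141), 0.27 (-17%, adjusted p = 1.52e-05) and 0.255 (-16.2%, adjusted p = 2.24e-05).

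The core subunits of complex I, which carry its cofactors, did not move as a block. Ndufv2, an iron-sulfur protein of the NADH module, was 12.01, 12.05, 12.03 and 12.03 at 0 ppm and 11.75, 11.71, 11.76 and 11.76 at 15 ppm after 13 w. These tight, separate groups gave a fall of 0.28 (SE 0.054, -17.9%, adjusted p = 1.44e-05), and at 4 w Ndufv2 fell by 0.20 (adjusted p = 0.00231). Ndufs7 was 11.23, 11.39, 11.33 and 11.15 at 0 ppm and 10.90, 10.91, 10.91 and 10.89 at 15 ppm after 13 w. It fell by 0.37 (SE 0.077, -22.8%, adjusted p = 5.82e-05), with the 15 ppm animals almost equal to each other.

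Ndufv1, which binds NADH and FMN beside Ndufv2, went against the median of its complex: it was called higher at 4 w, at 0.205 (adjusted p = 0.0196), and was at -0.00 after 5 d and 0.13 after 13 w without a call. With the beta-actin covariate it was called higher at these times too, at 0.185 (adjusted p = 0.0366) and 0.16 (adjusted p = 0.0308), and at 13 w against 0.7 ppm at 0.23 (adjusted p = 0.00708). The 4 w call was lost without the 0.7 ppm animal 245 (0.18) or 250 (0.18) or the 15 ppm animal 369 (0.18). Ndufs1, the largest subunit, was not called, with -0.13, -0.10 and 0.01. Ndufb7, an accessory subunit, was the other gene called higher, at 0.18 (adjusted p = 0.0291) after 5 d and 0.17 after 4 w, and it lost the call without any 1 of the animals 204, 210, 356 and 358 at 5 d (0.13 to 0.17) and of 243, 245, 250, 368 and 369 at 4 w (0.15 to 0.165).

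Complex II, succinate dehydrogenase, joins the citric acid cycle to the chain, and it had the lowest median at each time: -0.18, -0.185 and -0.23 over 4 genes, with 2, 3 and 3 called lower and 0 higher. Sdha, where succinate is oxidised, was 11.06, 11.20, 11.12 and 10.91 at 15 ppm after 5 d, below all 0 ppm animals at 11.42 to 11.496. It fell by 0.38 (SE 0.074, -23.2%, adjusted p = 3.13e-05), and by 0.175 (adjusted p = 0.0465) with the beta-actin measure as a covariate. After 13 w Sdha was 11.44, 11.39, 11.46 and 11.53 at 0 ppm and 11.22, 11.22, 11.18 and 11.13 at 15 ppm, a fall of 0.27 (adjusted p = 0.00226) without overlap.

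At 4 w the Sdha groups overlapped, and the difference of -0.18 (adjusted p = 0.0494) was not called without any 1 of the animals 242 (-0.14), 243 (-0.16), 362 (-0.16), 365 (-0.17) and 368 (-0.14). Against 0.7 ppm in place of 0 ppm, Sdha was at -0.10 (adjusted p = 0.282) after 13 w. Sdhc and Sdhd anchor the complex in the membrane and bind coenzyme Q. Sdhc fell by 0.19, 0.21 and 0.22, with adjusted p-values of 0.0294, 0.0155 and 0.0075. The 5 d call was lost with the beta-actin covariate (-0.07, adjusted p = 0.482) and without animal 204 (-0.18), 207 (-0.16) or 354 (-0.16), and the 4 w call without 242 (-0.17) or 368 (-0.18). Sdhd fell by 0.19 (adjusted p = 0.0368) at 4 w and by 0.24 (adjusted p = 0.00587) at 13 w. The 4 w call was lost without 242 (-0.16), 243 (-0.19), 245 (-0.17) or 368 (-0.12). The other probe set of Sdhd, with a mean of 11.39, was not called at any time. It was at 0.03 at 5 d, -0.10 (adjusted p = 0.53) at 4 w and -0.22 (adjusted p = 0.088) at 13 w. Sdhb, the iron-sulfur subunit between them, was not called at 15 ppm, with 0.09, -0.06 and -0.115. At 5 d it was called higher against 0.7 ppm (0.21, adjusted p = 0.00456) and under cyclic loess (0.13, adjusted p = 0.0466).

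**Figure D3:**
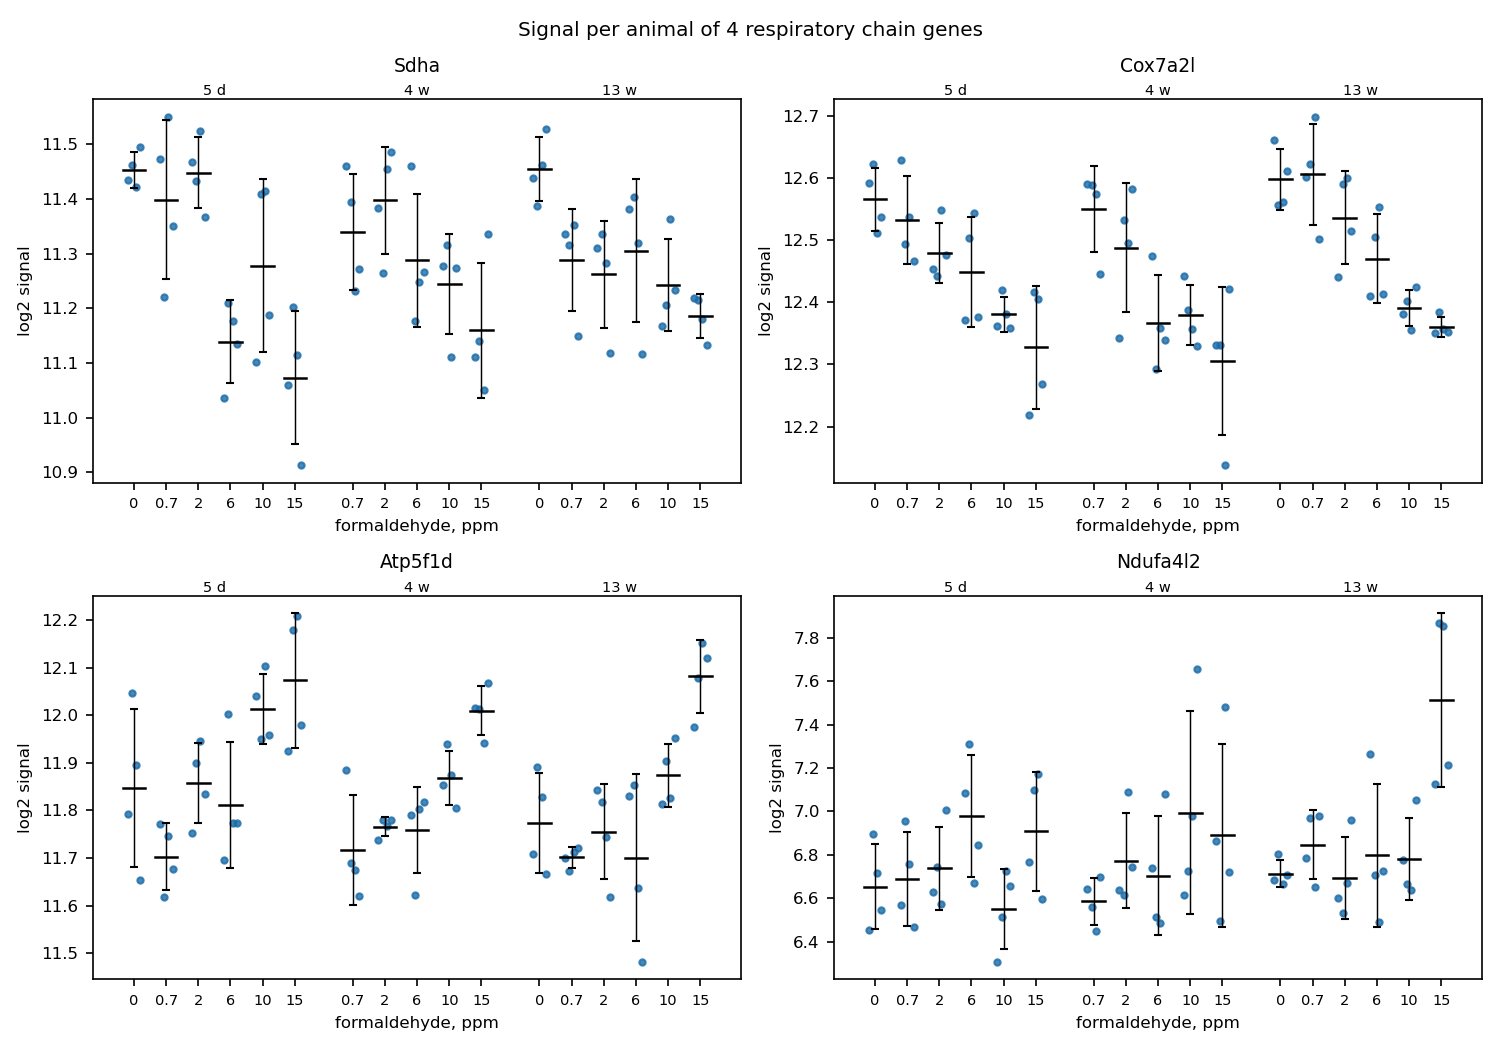
Log2 signal of Sdha, Cox7a2l, Atp5f1d and Ndufa4l2 in each animal (points) with group means and SD, against dose in ppm and set out by time from left to right; each gene has its own scale. Sdha and Cox7a2l are lower and Atp5f1d is higher at 15 ppm, and Ndufa4l2 stands above its reference at 15 ppm after 13 w.

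Of the 7 members in complex III 1 was higher and 2 lower after 5 d, 1 and 1 after 4 w, and 0 and 1 after 13 w. Their medians were -0.06, -0.04 and 0.02. A bright probe set outside the 7, which names Uqcrb together with another gene, was at -0.25, -0.28 and -0.28 (SE 0.046). Uqcr10, a small subunit, fell by 0.18 (SE 0.043, adjusted p = 0.000561) at 5 d and by 0.16 (adjusted p = 0.00226) at 4 w, and the 5 d value was -0.05 against 0.7 ppm. Uqcrq, which lies beside cytochrome b, rose by 0.175 (SE 0.055, adjusted p = 0.00866) at 5 d, with 15 ppm animals at 12.68, 12.87, 12.75 and 12.73 above 0 ppm animals at 12.63, 12.66, 12.55 and 12.50, and lost the call without animal 356 (0.14). Uqcrc1, a core protein of the matrix side, was at 0.18 (adjusted p = 0.0322) at 4 w, not called without any 1 of the animals 243, 245, 250, 368 and 369 (0.16 to 0.17). Its partner Uqcrc2 was not called, with -0.13, -0.10 and 0.02. The other probe set of Uqcrc2 was lower at 5 d, at -0.49 (limma adjusted p = 0.0314), and at -0.03 and 0.09 at 4 w and 13 w. What Uqcrc2 did at 5 d thus depends on the probe set. Uqcrfs1, the Rieske iron-sulfur protein, was not called, with 0.13, 0.09 and 0.02 (95% interval -0.12 to 0.16 at 13 w). At 5 d it was called higher against 0.7 ppm (0.33, adjusted p = 0.000167) and under cyclic loess (0.16, adjusted p = 0.0318).

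In complex IV, cytochrome c oxidase, 0 were higher and 3 lower at 5 d and again at 4 w, and 2 higher and 6 lower at 13 w, of 19 genes, with medians of 0.00, 0.07 and -0.04. The change of greatest size among all 80 genes was in Cox8b. It was 9.40, 9.83, 9.84 and 9.35 at 0 ppm and 8.81, 8.48, 8.89 and 9.13 at 15 ppm after 5 d. At 4 w it was 9.62, 9.36, 9.76 and 9.49 at 0.7 ppm and 8.40, 8.75, 8.57 and 8.21 at 15 ppm. At 13 w it was 9.50, 9.55, 9.35 and 8.92 at 0 ppm and 8.76, 8.08, 7.70 and 8.57 at 15 ppm. In none of the 3 did an exposed animal reach the lowest reference animal, although the 15 ppm animals of 13 w were spread over more than 1 unit.

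Cox8b fell by 0.78 (-41.7%, 95% interval -1.17 to -0.39, adjusted p = 0.00102), by 1.08 (-52.5%, interval -1.47 to -0.68, adjusted p = 1.07e-05) and by 1.06 (-51.9%, interval -1.45 to -0.665, adjusted p = 8.97e-06). These 3 calls held under every alternative listed for them, and the beta-actin covariate gave -0.87 at 5 d. At 10 ppm Cox8b was at -0.51 (adjusted p = 0.0674) after 5 d and -0.42 (adjusted p = 0.112) after 13 w. Cox8b is known from heart, muscle and brown fat, and the summed signal of 10 skeletal muscle markers also lay lower at 15 ppm, from 4255 to 5036 against 5476 to 6297 at 4 w and from 3777 to 4515 against 4895 to 5513 at 13 w, but from 4410 to 6084 against 5266 to 5771 at 5 d. In each of these groups 7 or 8 of the 10 muscle genes had a mean under 6. Myh1, a fast myosin heavy chain, was bright, and it alone was called, from 12.35 to 12.02 at 4 w (-0.33, adjusted p = 0.0117) and from 12.18 to 11.87 at 13 w (-0.30, adjusted p = 0.0178). The linear sum was mostly Myh1 signal, so the sum and the fall of Myh1 are not separate observations. The median over the 10 muscle markers was -0.13, -0.04 and -0.03 at 5 d, 4 w and 13 w after median centring of the arrays. Cyclic loess gave -0.14, -0.07 and 0.01. The part of muscle RNA in the Cox8b values was not tested.

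Cox8a, the general isoform at the same place in the complex, fell far less. After 13 w it was 13.46, 13.47, 13.42 and 13.41 at 0 ppm, 13.21, 13.25, 13.28 and 13.20 at 10 ppm and 13.17, 13.11, 13.09 and 13.15 at 15 ppm, so that neither exposed group overlapped the reference. It fell by 0.13 (SE 0.041, -8.65%, adjusted p = 0.00929), 0.18 (-11.7%, adjusted p = 0.000404) and 0.31 (-19.4%, adjusted p = 8.05e-09) at 5 d, 4 w and 13 w. With the beta-actin covariate the 5 d value was -0.115 (adjusted p = 0.0565).

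**Figure D4:**
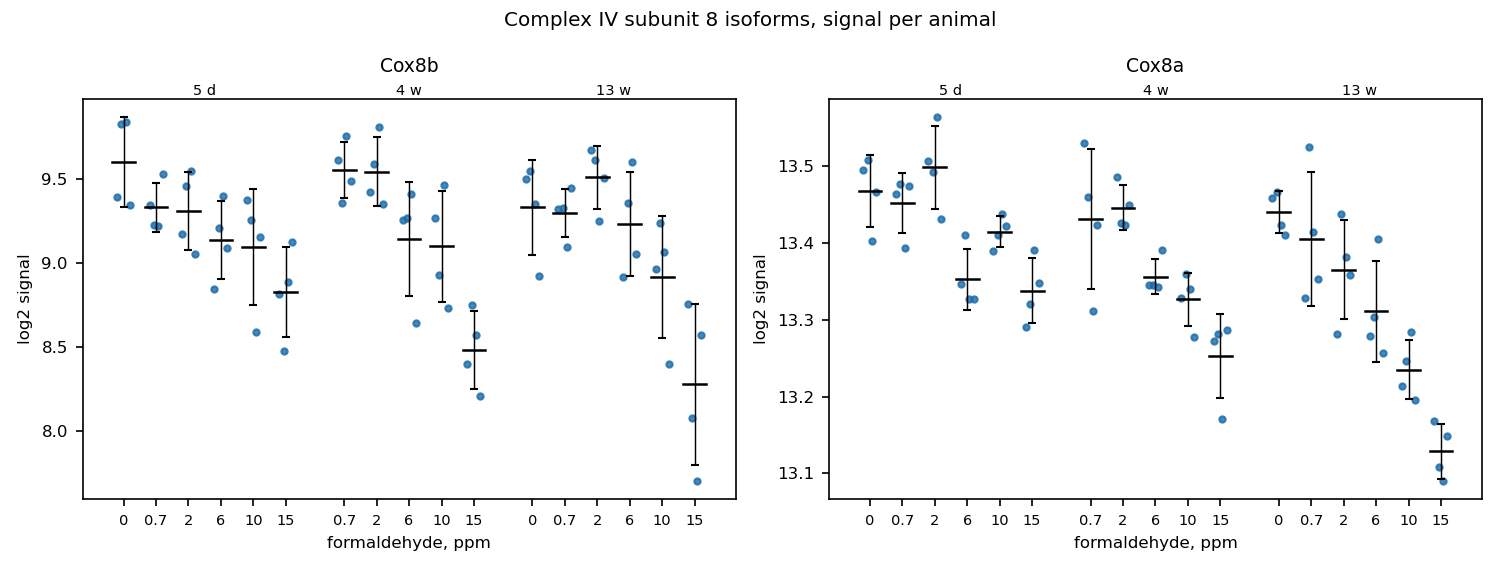
Log2 signal of Cox8b and Cox8a in each animal (points) with group means and SD, against dose in ppm and set out by time from left to right; the genes have their own scales, since levels of different probe sets cannot be set against each other. Cox8b lies between 7.70 and 9.13 at 15 ppm, and Cox8a after 13 w is lower at both 10 and 15 ppm than at 0 ppm.

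Of the other isoform pairs, Cox4i1, the general form of subunit 4, was called lower at 13 w, at -0.14 (adjusted p = 0.0129), and not without the 0 ppm animal 226 (-0.115) or with the RNA integrity number as a covariate (-0.11, adjusted p = 0.206), while Cox4i2, the form known from lung, was at 0.13, 0.13 and -0.03 in the low range. Cox6a1 and Cox6a2, Cox6b1 and Cox6b2, and Cox7a1 were not called at 15 ppm. Their intervals at 13 w allow Cox6a1 a difference of -0.13 to 0.06 and Cox6b1 one of -0.05 to 0.16. Cox7a1, the muscle form of subunit 7a, was at 0.30 (adjusted p = 0.0925) at 4 w, opposite in sign to Cox8b. A probe set that names Cox7a2 together with another gene was at -0.08, -0.14 and -0.20 (SE 0.045) at 5 d, 4 w and 13 w. Cox5a at 13 w was 0.28 (adjusted p = 0.0476), not called without 226 (0.20), 229 (0.27), 378 (0.23) or 379 (0.25), and 0.04 against 0.7 ppm.

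Cox7a2l, the supercomplex factor, had its most separate values after 13 w, with 12.66, 12.56, 12.56 and 12.61 at 0 ppm and 12.35, 12.38, 12.36 and 12.35 at 15 ppm. It fell by 0.24 (SE 0.054, -15.2%, adjusted p = 0.000302) at 5 d, 0.245 (-15.6%, adjusted p = 0.00022) at 4 w and 0.24 (-15.2%, adjusted p = 0.000227) at 13 w, and was also called lower at 10 ppm at every time.

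Ndufa4l2, a relative of Ndufa4 known to be induced by hypoxia, was the member that rose most. After 13 w it was 6.68, 6.80, 6.66 and 6.71 at 0 ppm, 6.78, 6.66, 6.64 and 7.05 at 10 ppm, and 7.13, 7.87, 7.85 and 7.21 at 15 ppm. All 4 animals at 15 ppm stood above the others, in 2 pairs apart by over 0.6. It rose by 0.80 (SE 0.185, 95% interval 0.43 to 1.17, 74.1%, adjusted p = 0.000281) against 0 ppm and by 0.73 (66.1%, adjusted p = 0.00509) against 10 ppm, and with the RNA integrity number as a covariate the first value was 0.565 (adjusted p = 0.0757). At 5 d and 4 w it was at 0.255 and 0.30 without a call. Ndufa4 itself was at -0.10, -0.07 and -0.00, with an interval of -0.11 to 0.105 at 13 w.

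In complex V 3 were higher and 2 lower at 5 d, 3 and 1 at 4 w, and 3 and 2 at 13 w, of 16 genes, with medians of -0.02, -0.01 and -0.04. Atp5mpl was 12.32, 12.26, 12.22 and 12.25 at 0 ppm and 12.49, 12.65, 12.50 and 12.38 at 15 ppm after 5 d, and 12.31, 12.16, 12.28 and 12.27 against 12.44, 12.46, 12.59 and 12.57 after 13 w, with no overlap at either time. It rose by 0.25 (SE 0.061, 18.7%, adjusted p = 0.000854), 0.275 (21%, adjusted p = 0.000233) and 0.26 (20%, adjusted p = 0.000285), and the 13 w value with the RNA integrity number as a covariate was 0.17 (adjusted p = 0.0905).

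Atp5f1d, the delta subunit of the rotating central stalk, was 11.71, 11.89, 11.83 and 11.67 at 0 ppm and 11.98, 12.08, 12.15 and 12.12 at 15 ppm after 13 w. It rose by 0.23 (17.1%, adjusted p = 0.0102), 0.29 (22.5%, adjusted p = 0.00097) and 0.31 (23.8%, adjusted p = 0.00038), where the 5 d call was lost without 210 (0.16), 356 (0.19) or 358 (0.18). Atp5me, a membrane subunit, was at 0.17, 0.145 and 0.15, but the other probe set of this gene gave -0.09, 0.16 and 0.03 with no call, so that the gene's direction at 5 d depends on the probe set. Its calls were also lost without 210 (0.13) or 358 (0.11) at 5 d, 365 (0.135) at 4 w, and 378 (0.12) or 379 (0.13) at 13 w.

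The catalytic head did not follow those genes. Atp5f1a was 12.64, 12.80, 12.71 and 12.59 at 0 ppm and 12.40, 12.53, 12.53 and 12.46 at 15 ppm after 5 d, a fall of 0.21 (adjusted p = 0.00441). With the beta-actin covariate this difference was -0.02 (adjusted p = 0.816), and at 4 w and 13 w it was -0.00 and 0.03. Atp5f1b was called lower at 5 d at -0.13, and not without any 1 of the animals 204, 207, 208, 354, 356 and 359. Atp5f1c, the gamma subunit of the stalk, was not called at 15 ppm (-0.13, -0.09 and -0.11), nor was Atp5mc3, of the rotor ring (0.08, 0.01 and 0.04). Atp5pf was 12.36, 12.37, 12.39 and 12.36 at 0 ppm and 12.13, 12.03, 12.15 and 12.02 at 15 ppm after 13 w, a fall of 0.29 (SE 0.064, -18%, adjusted p = 0.000163).

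The split between higher and lower at 5 d depends on the RNA measure. With the beta-actin difference as a covariate 15 members were called higher and 7 lower at 15 ppm, against 5 and 13 without it, so that the share of called members that were higher was 68.2% in place of 27.8%, against 51.7% and 48.4% of the called genes overall. The 11 members newly called were all higher: Sdhb at 0.23, Uqcrfs1 at 0.31, Ndufv1 at 0.185, Ndufa8, Ndufa11, Ndufab1, Ndufb10, Ndufc1, Ndufs8, Atp5mg and Atp5pb. Of the 18 members called without it, 4 higher and 7 lower kept the call, among them Cox8b, Ndufb4, Ndufa1, Cox7a2l, Sdha, Atp5mpl and Atp5f1d, and 1 higher and 6 lower lost it. Cyclic loess gave 9 higher and 10 lower members at 5 d (47.4% higher, against 56.2% over all genes). Centring each array on its median gave 3 and 15 at 4 w (16.7% higher in place of 30%, against 52.2% and 56.9% over all genes). The reference dose mattered too. Against 0.7 ppm at 5 d, Sdhb, Uqcrfs1 and Cox4i1 (0.145, adjusted p = 0.0127) were called higher at 15 ppm. In that comparison Atp5f1a (-0.12, adjusted p = 0.104), Atp5f1b (-0.06, adjusted p = 0.387) and Uqcr10 (-0.05, adjusted p = 0.387) were not called.

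The next question was whether 15 ppm differed from 10 ppm. After 5 d 2 members were lower (background 15.2% called), Ndufb4 at -0.145 (adjusted p = 0.0264) and Sdha at -0.205 (adjusted p = 0.05, just under the threshold). After 4 w 2 were lower (background 6.29%), Cox8b at -0.62 (adjusted p = 0.0438) and Ndufa1 at -0.17 (adjusted p = 0.0319). After 13 w 2 were higher and 1 lower (background 12.6%): Ndufa4l2, Atp5f1d at 0.21 (adjusted p = 0.0494) and Cox8b at -0.64 (adjusted p = 0.0214). The Cox8b groups overlapped in both. Without 1 animal the 5 d count was 0 (328 or 354) or 1 (324, 329, 356, 358 or 359), the 4 w count 0 (331 or 368) or 1 (336, 362 or 369) and the 13 w count 1 (341, 346 or 378) or 5 (375). Of these calls, that of Ndufa4l2 held whichever animal was left out, and it was 0.565 (adjusted p = 0.0684) with the RNA integrity number as a covariate.

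Whether the effect of a dose changed with time was tested as an interaction. For 15 ppm, 13 w against 5 d, 1 member had a higher and 3 a lower difference at 13 w (background 15.3% called). Cox8a moved from -0.13 to -0.31 (interaction -0.18, adjusted p = 0.0263), Atp5pf from -0.03 to -0.29 (-0.26, adjusted p = 0.04) and Cox7c, a small complex IV subunit, from 0.06 to -0.17 (-0.23, adjusted p = 0.023). Atp5f1a moved from -0.21 to 0.03 (0.24, adjusted p = 0.0488), but its interaction was 0.08 (adjusted p = 0.469) with the beta-actin covariate, and adjusted p was between 0.0515 and 0.0525 with median centring, cyclic loess or these times fitted alone. The count was 1 without animal 226 or 208, 2 without 225, 229, 356, 358, 377 or 378, 2 with the RNA integrity number and 13 with the beta-actin measure as a covariate. With the beta-actin measure Cox8a, Atp5pf and Cox7c kept their calls. With the RNA integrity number Cox8a was at -0.16 (adjusted p = 0.131) and Atp5pf at -0.27 (adjusted p = 0.0701), without a call.

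For 4 w against 5 d, with 0.7 ppm as the reference at both times, 1 member was called at 15 ppm (background 3.45%). Ndufa6, an accessory subunit of complex I, went from 0.08 at 5 d to -0.265 at 4 w (interaction -0.35, adjusted p = 0.0155). It was -0.315 (adjusted p = 0.0502) after median centring of the arrays, and the count was 0 without 368, 2 without 354 or 365 and 3 without 245 or 250. For 13 w against 4 w limma called 0 members (background 0.0633%), with 3 at an unadjusted p under 0.05 (10.5% of all genes). At 6 and 10 ppm, 13 w against 5 d, it called 0 (backgrounds 0% and 0.00703%), with 1 and 6 at an unadjusted p under 0.05 (10.5% and 5.88% of all genes). The interactions of Cox8b (-0.28, adjusted p = 0.574), Ndufa4l2 (0.55, adjusted p = 0.166) and Sdha (0.11, adjusted p = 0.537) were not called, so no change with time was shown for them. Between the 0 ppm groups of 13 w and 5 d limma called 0 members (background 2.24%), and 1 without the 0 ppm animal 226. At an unadjusted p under 0.05 there were 8 (16.9% of all genes).

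Other gene lists of the mitochondrion and of glycolysis were set beside the subunits at 15 ppm, against the same backgrounds of all genes. Of 31 genes of protein import into mitochondria 18, 16 and 18 were higher and 0, 0 and 1 lower at 5 d, 4 w and 13 w, with medians of 0.28, 0.22 and 0.23. Tomm70, an import receptor, rose by 0.71, 0.78 and 1.08, and Timm8a1, an intermembrane chaperone, by 0.86, 0.99 and 1.22. Of 73 genes of the mitochondrial ribosome, which translates the subunits encoded by mitochondrial DNA, 30, 28 and 26 were higher and 5, 4 and 6 lower. Mrpl38 rose by 0.80, 0.885 and 0.835 and Mrps2 by 0.42, 0.565 and 0.70.

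Of 18 glycolysis genes 11, 12 and 11 were higher and 2, 0 and 0 lower, with medians of 0.495, 0.48 and 0.39. Slc16a1, a lactate transporter, rose by 2.22, 2.45 and 2.79 and Pgam1, a glycolytic enzyme, by 0.57, 0.75 and 0.82. Of 45 assembly factors 8, 11 and 14 were higher and 7, 7 and 9 lower, with Cmc2, a complex IV factor, at 0.53, 0.77 and 0.88. Under cyclic loess 16 assembly factors were higher and 4 lower at 5 d. The basal and squamous markers that were higher and the ciliated markers that were lower, given above, moved in the same comparisons, and their part in these counts was not tested.

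The citric acid cycle was mixed, with 3, 2 and 4 higher and 7, 6 and 7 lower of 24 genes. After 5 d Idh2 was at -0.58, Suclg2 at -0.52 and Ogdh at -0.345, all enzymes of the cycle. Electron carriers, meaning cytochrome c and the enzymes of coenzyme Q synthesis, were 2, 6 and 8 higher and 6, 3 and 4 lower of 18, and 6 higher and 5 lower at 5 d under cyclic loess. Coq8a, needed for coenzyme Q synthesis, fell by 1.59, 1.13 and 1.59, and Pdss2, which makes the tail of coenzyme Q, fell by 0.59, 0.50 and 0.66.

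Cyc1, a complex III subunit that the name rule leaves out, rose by 0.34 at 4 w and 0.36 at 13 w. Of 20 regulators of mitochondrial gene expression 5, 6 and 10 were higher and 2, 3 and 1 lower, and 9 higher at 5 d under cyclic loess. Twnk, the mitochondrial DNA helicase, rose by 0.99, 1.06 and 1.30 and the coactivator Pprc1 by 0.63, 0.95 and 1.12, whereas the coactivator Ppargc1a fell by 1.67 (adjusted p = 7.34e-06) at 13 w. Of 11 carriers and porins 2, 4 and 2 were higher and 2, 1 and 2 lower, with Ucp2, an inner membrane carrier, at 0.34, 0.61 and 0.73 and Slc25a4, the ADP/ATP exchanger of muscle and other tissues, at 0.28, 0.28 and 0.31.

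**Figure D5:**
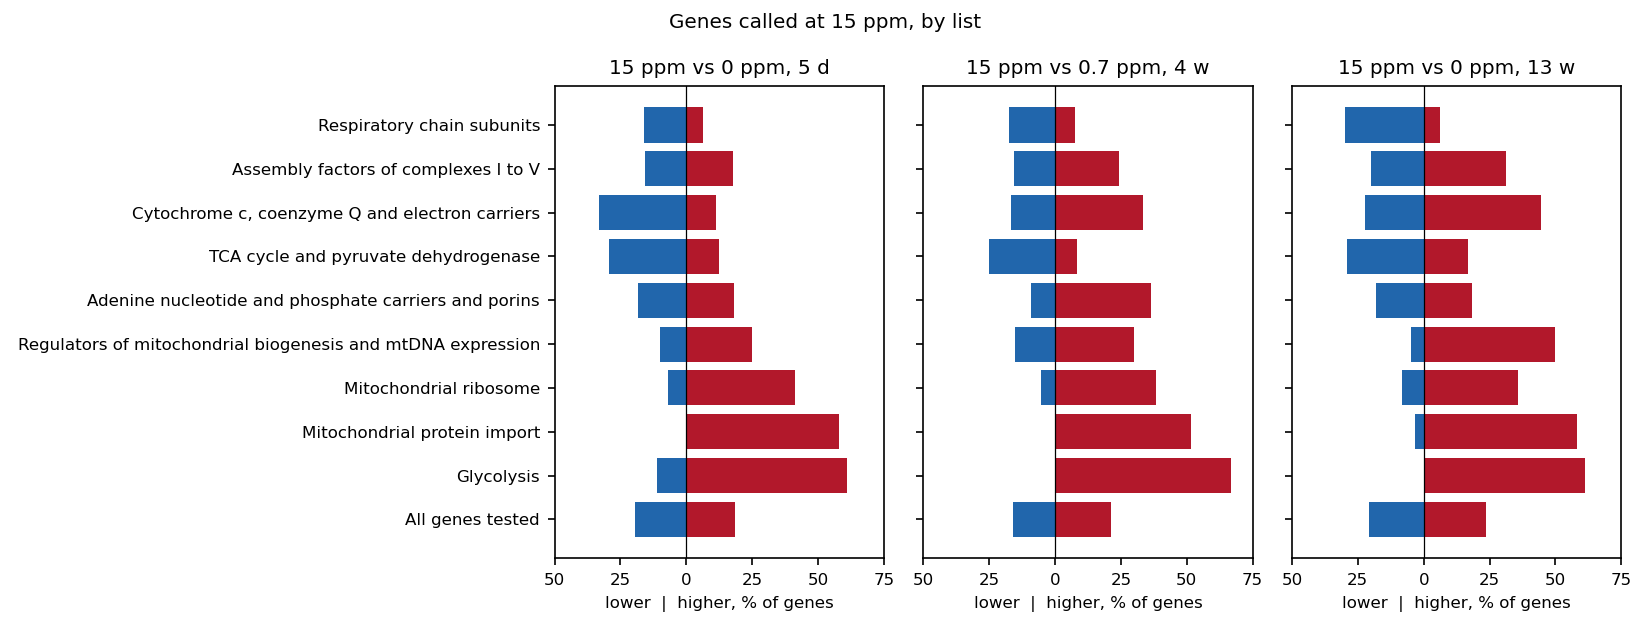
Share of each list called higher (right) and lower (left) by limma at 15 ppm, in percent of the genes of the list, in a panel per time, with all 14217 genes for comparison. Import, mitochondrial ribosome and glycolysis lie mostly to the right, and the respiratory chain subunits lie mostly to the left at each time.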

How the data were processed

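RNA was hybridised to Rat Genome 230 2.0 arrays. Values were used on the log2 scale as the authors deposited them, and RMA and GCOS 1.0 are named per the submitters' processing notes. No array was renormalised. Of 31099 probe sets, 20826 name a single gene, giving 14217 genes. A model with 1 mean per group was fitted to all 68 arrays with limma 3.58.1 (R 4.3.3; lmFit, eBayes, two-sided, 53.8 degrees of freedom, 51 from the arrays), with Benjamini-Hochberg adjustment over all genes per comparison. P-values rest on the spread between animals within groups, pooled for each gene over all 17 groups of 4 and moderated over genes. They do not rest on the animals of the compared groups alone. Array medians ran from 6.82 to 6.96, and 5 arrays had no RNA integrity number. The number of arrays limits the precision.

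For 19 of 20 samples of 4 w a treatment field gives a duration of 5 days; titles and the time field were followed. Titles of the 0 ppm samples carry other study codes than the rest, and code and dose cannot be told apart.

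Members and lists were chosen with earlier results of these data known. Full values were given for up to 6 called members per direction at 15 ppm and 3 at other doses by smallest adjusted p, core subunits, isoform pairs, called members opposite to their complex, up to 3 interactions per sign, and up to 3 called genes per list. Scripts were tested on simulated data. Alternatives covered scaling, filtering, array weights, covariates, reference dose and single animals.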

Additional observations from a re-analysis of the deposited data

Results flagged for a closer look

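Within groups of 4, an animal that stood apart from the other 3 by Dixon's 95% criterion (the gap to the nearest animal over the range of the group) was found in 12 of 221 groups, counted over 12 genes and the median of all members, and chance gives about 1 in 20. After 5 d, Ndufb4 was 13.33 in the 0 ppm animal 210 against 13.44 to 13.45. Cox8a was 13.39 in the 0.7 ppm animal 237 against 13.46 to 13.48, and the median of all members was 11.95 in the 0.7 ppm animal 235 against 12.04 to 12.05. Ndufs7 was 11.33 in the 6 ppm animal 298 against 10.91 to 10.95, and Ndufa1 was 13.06 in the 10 ppm animal 329 against 13.15 to 13.16.

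After 4 w, Cox7a2l was 12.45 in the 0.7 ppm animal 250 against 12.57 to 12.59. At 6 ppm Cox8a was 13.39 in animal 310 against 13.34 to 13.35, and Atp5f1d was 11.62 in animal 307 against 11.79 to 11.82. Atp5mpl was 12.48 in the 10 ppm animal 333 against 12.30 to 12.32, and Cox8a was 13.17 in the 15 ppm animal 368 against 13.27 to 13.29. After 13 w, Cox4i1 was 12.85 in the 6 ppm animal 320 against 13.04 to 13.07, and Atp5f1b was 13.30 in the 15 ppm animal 375 against 13.19 to 13.20.

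The effect of 15 ppm differed between 13 w and 5 d, by the interaction in limma, for Atp5f1a (0.237), Atp5pf (-0.26), Cox7c (-0.228) and Cox8a (-0.181). With the beta-actin measure as a covariate the Atp5f1a interaction was 0.08 (adjusted p = 0.469), and that of the other 3 kept its call. With the RNA integrity number as a covariate Cox8a (adjusted p = 0.131) and Atp5pf (adjusted p = 0.0701) lost the call. Leaving out the arrays without that number ended all 3 calls (adjusted p from 0.0746 to 0.0968). The Atp5pf call was also lost without any 1 of the animals 204, 208, 210, 225, 226, 229, 230, 356, 358, 377 and 379. Between 4 w and 5 d, with 0.7 ppm as the reference at both times, the effect of 15 ppm differed for Ndufa6 (-0.348).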

How the results depend on the processing

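Counts of members called are given below as the alternative value, with the reported count in brackets, where they moved by more than 1.5 times; the causes were not tested. Centring each array on its median gave 5 (11) at 6 ppm 5 d, 0 (1) at 6 ppm 4 w and 15 (7) at 6 ppm 13 w (8.1%, 3.29% and 13% of all genes). For 15 against 10 ppm it gave 1 (2), 1 (2) and 8 (3) at 5 d, 4 w and 13 w, for 13 w against 5 d at 0 ppm 1 (0), and for the 4 w to 5 d interaction 0 (1). Cyclic loess gave 2 (1) at 6 ppm 4 w, 1 (2) for 15 against 10 ppm at 5 d, and 8 (4) and 3 (1) for the 13 w and 4 w interactions with 5 d at 15 ppm. The filter on low signal and the trended robust fit each gave 2 (1) for the 4 w interaction. Array weights gave 24 (11) at 6 ppm 5 d (18.3% of all genes), 0 (1) at 6 ppm 4 w (2.93%), 7 (4) at 10 ppm 4 w (20.9%), 9 (3) for 15 against 10 ppm at 13 w and 3 (0) between the 0 ppm groups.

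The RNA integrity number as a covariate gave 4 (11) at 6 ppm 5 d (6.3% of all genes), 3 (7) at 6 ppm 13 w (10.1%), 1 (2) and 0 (3) for 15 against 10 ppm at 4 w and 13 w, 1 (0) between the 0 ppm groups and 2 (4) for the 13 w interaction. Leaving out the arrays without that number gave 5 (11) at 6 ppm 5 d, 0 (1) at 6 ppm 4 w, 2 (7) at 6 ppm 13 w, 1 (2) for 15 against 10 ppm at 5 d, 1 (0) between the 0 ppm groups and 1 (4) for the 13 w interaction. The beta-actin covariate gave 0 (11), 2 (1) and 2 (7) at 6 ppm 5 d, 4 w and 13 w (4.19%, 3.83% and 13% of all genes), and 13 (4) and 10 (1) for the 13 w and 4 w interactions. Without the 2 ppm 4 w array of lowest RNA integrity number, 15 against 10 ppm at 5 d gave 1 (2).

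Fitting only the times compared, which leaves fewer arrays, gave 5 (11), 3 (6) and 0 (2) at 6 ppm, 10 ppm and 15 against 10 ppm of 5 d. It gave 0 (1), 0 (4), 13 (20) and 0 (2) at 6 ppm, 10 ppm, 15 ppm and 15 against 10 ppm of 4 w, 4 (7) and 7 (11) at 6 and 10 ppm of 13 w, 1 (0) between the 0 ppm groups and 2 (4) for the 13 w interaction. With 0.7 ppm as the reference the counts were 2 (11) and 19 (6) at 6 and 10 ppm 5 d and 3 (7) at 6 ppm 13 w.

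Leaving out each animal gave 5 to 15, 3 to 6 and 14 to 17 at 6, 10 and 15 ppm of 5 d, 0 to 3, 0 to 5 and 13 to 20 at 4 w, and 0 to 9, 5 to 12 and 23 to 30 at 13 w. It gave 0 to 2, 0 to 2 and 1 to 5 for 15 against 10 ppm at 5 d, 4 w and 13 w, 0 to 1 between the 0 ppm groups, and 1 to 6 and 0 to 3 for the 13 w and 4 w interactions at 15 ppm. It gave 0 to 0 at 0.7 and 2 ppm and for the remaining interactions.

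For the genes named, 1780 values under an alternative kept direction and side of the threshold, 268 lost the call, 14 gained one and 3 changed sign: Ndufv1 at 15 ppm 5 d (0.185, beta-actin covariate), Uqcr10 at 10 ppm 5 d (0.00167, 0.7 ppm as reference) and Atp5me at 15 ppm 5 d (-0.093, other probe set). No paired analysis was possible because no animal number is shared between groups. With 4 animals per group and differences mostly under 0.3, calls near the threshold turn on single arrays, and the 3 isoforms with no group mean of 6 or more are limited by dim signal.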
